A study of Homo sapiens with 30 samples.

Results

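The RAB GTPase genes were followed through a labelling time course of RNA in a prostate cancer cell line. Members were the protein-coding genes whose symbol is RAB followed by digits and at most 1 letter, as in RAB3A. Each was represented by the coding transcript whose deposited expression values had the highest sum. The rule gave 60 of the 22383 genes of the deposited table, and it used no measured value beyond the choice of transcript. Of the 60 members, 57 had at least 1 read and 48 passed the filter on low counts. RAB19, RAB41 and RAB44 had no read, and the other members that did not pass were RAB25, RAB33A, RAB37, RAB38, RAB39A, RAB40A, RAB42, RAB43 and RAB6C. RAB29 and RAB6D fell outside the rule because the table lists them under older names, RAB7L1 and LOC150786. The reads of RAB43 were identical to those of the read-through transcript ISY1-RAB43, and RAB6C is a near copy of RAB6A, so both are uncertain.

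RAB proteins are small GTPases that mark the membranes of a cell. An exchange factor, often with a DENN domain, loads a RAB with GTP on its target membrane, the active RAB recruits effectors such as tethers and motor proteins, and a GTPase-activating protein, usually of the TBC family, ends the cycle. Prenyl groups anchor the RAB in the membrane, and GDI proteins extract the GDP-bound form and carry it through the cytosol. In secretory epithelia such as the prostate, RABs of the ER and Golgi, the endosomes, the recycling route and the secretory vesicles together carry cargo to and from the cell surface.

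The cells were 22Rv1, an established castration-resistant line of human prostate carcinoma, cultured in RPMI-1640 with fetal bovine serum. The assay was SLAM-seq, in which cells take up 4-thiouridine (s4U), the extracted RNA is alkylated with iodoacetamide, and new RNA then shows T-to-C conversions in the reads. KB742 and KI-ARv-03 are inhibitors of CDK9, the kinase that releases paused RNA polymerase II. The 9 treated groups were KB742 at 1.2 µM for 2, 4 or 8 h, KI-ARv-03 at 4 µM for 2, 4 or 8 h and DMSO for 2, 4 or 8 h, and the 0 h group had no compound. All groups had a 30 min pulse of 800 µM s4U, after which the 0 h cells were collected, and the treated groups stayed in fresh medium with 800 µM s4U until collection. Each of the 10 groups had 3 libraries of transcript 3′ ends, and no label says that the 3 came from separate cultures, so p-values measure a spread that may be technical. A comparison of DMSO with 0 h holds elapsed time, the change of medium, DMSO and the longer exposure to s4U, which cannot be told apart. The doses of the 2 compounds differ, so their values are given side by side and were not compared with each other. The labels conflict on time for 8 of the 9 samples titled 4 h, and the titles were followed. The treatment label of the KB742 samples writes the dose without the decimal point of the titles and the protocol, and other fields name DMSO for every sample, so dose and compound were taken from the titles.

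The libraries held 3376884 to 9265131 reads behind the deposited values, and 0.339% to 0.513% of the reads on genes fell on members. For a log2 difference between groups the 95% interval reached a median of 0.763 to either side over the members tested and 0.864 over all 11425 genes tested. Replicate 3 at 0 h and KB742 2 h replicate 2 had the lowest median correlations with the other libraries (0.830 and 0.868). KI-ARv-03 4 h replicate 1 had a read-weighted conversion of 1.18%, against 0.382% and 0.422% in the other libraries of its group. These 3 libraries stand apart, and the counts that rest on them are given with and without them. All 9 luminal prostate markers passed the filter, with a summed level of 858 to 1716 CPM (reads scaled to library size) in every library. None of 4 basal markers (sum 0 to 2.44 CPM, 1 marker at 0), 1 of 4 stromal markers (sum 0.519 to 23.9 CPM, 1 at 0) and none of 6 immune and endothelial markers (sum 0 to 4.29 CPM, 3 at 0) passed.

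Of the members with at least 2 conversion values after 8 h with DMSO, described further on, the 3 highest were RAB3A, RAB8A and RAB14, and their promoters are shown because CDK9 acts on the polymerase paused just after the start of a gene. RefSeq windows on GRCh38.p14, from 250 bases before to 50 bases after the gene start, were found for 39 of the 48 members that passed the filter, in 56 windows. The letters searched, on both strands, were the GC box GGGCGG, the CCAAT box, the TATA box core TATAAA, the element TGACG, the full cyclic AMP response element TGACGTCA, which contains it, the AP-1 site TGACTCA, the E-box CACGTG, the YY1-like AAGATGGC and the palindromic NRF1 site, and matches are in capitals in the strand of the gene.
RAB3A promoter, chr19:18203993-18204292, minus strand: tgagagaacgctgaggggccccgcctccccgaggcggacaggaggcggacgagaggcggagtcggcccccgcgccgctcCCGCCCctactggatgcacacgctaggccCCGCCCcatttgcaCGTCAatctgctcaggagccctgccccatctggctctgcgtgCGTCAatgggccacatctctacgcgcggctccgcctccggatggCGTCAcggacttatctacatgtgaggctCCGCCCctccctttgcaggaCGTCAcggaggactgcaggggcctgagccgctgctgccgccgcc
RAB8A promoter, chr19:16111639-16111938, plus strand: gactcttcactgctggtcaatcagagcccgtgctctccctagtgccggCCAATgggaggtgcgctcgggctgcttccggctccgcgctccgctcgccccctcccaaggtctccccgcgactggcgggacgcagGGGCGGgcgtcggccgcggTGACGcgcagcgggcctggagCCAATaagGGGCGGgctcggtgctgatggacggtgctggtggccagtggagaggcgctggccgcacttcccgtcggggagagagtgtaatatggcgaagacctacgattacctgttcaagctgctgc
RAB14 promoter, chr9:121201820-121202119, minus strand: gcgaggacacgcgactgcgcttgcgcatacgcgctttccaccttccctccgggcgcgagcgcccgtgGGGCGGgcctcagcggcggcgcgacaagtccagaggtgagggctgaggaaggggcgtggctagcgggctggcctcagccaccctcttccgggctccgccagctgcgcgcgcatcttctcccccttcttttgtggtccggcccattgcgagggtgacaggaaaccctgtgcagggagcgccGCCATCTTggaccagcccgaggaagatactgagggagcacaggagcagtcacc

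The RAB3A window held 4 TGACG elements, read as CGTCA on the strand shown, and 3 GC boxes. The RAB8A window held 2 CCAAT boxes, 2 GC boxes and 1 TGACG element. The RAB14 window held 1 GC box and 1 YY1-like match. Over the members that passed the filter, GGGCGG was in 78.6% of the windows, and it was in 45.0% of all 35116 RefSeq windows. TGACG was in 39.3% and 24.6%. All RefSeq windows were taken without a filter on counts, so the sets compared are unlike. CCAAT was in 33.9% of member windows and 34.6% of all windows, TATAAA in 3.57% and 11.5%, and AAGATGGC in 7.14% and 2.89%. The AP-1 site was in 10.7% and 4.95%, the E-box in 8.93% and 7.26%, the NRF1 site in 1.79% and 1.24%, and the full cyclic AMP response element in 0% and 1.85%, with none of these 4 in the windows shown. These matches describe the letters in the windows and say nothing of binding.

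The 3′ end of a transcript, which these libraries read, also holds signals that set its lifetime, and the pentamer ATTTA is the core of AU-rich elements. A 3′ untranslated region was found in the GENCODE annotation of GRCh38 for 47 of the 48 members tested, with lengths of 292 to 14612 bases and a median of 2260 bases. RAB3A had one of 686 bases with 4 copies of ATTTA, shown in capitals with their flanks because RAB3A was the member with the highest conversion.
RAB3A bases 126 to 130: cacccttATTTAttattgt
RAB3A bases 142 to 154: tgtagctATTTATTTATTTAttgaaga
The second site joins 3 overlapping copies. Over 30 members with both values, Spearman's rho with conversion after 8 h of DMSO was 0.43 for the number of ATTTA copies and 0.41 for the length of the region, and longer regions hold more copies by their length. For copies per 1000 bases it was 0.26. Among the 47 members, 5 had no copy, RAB8A among them.

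RAB3A, which drives the docking of secretory and synaptic vesicles before fusion, had the largest increase in level with DMSO and was the one member called lower with both compounds. Levels are CPM rescaled by the trimmed mean of M values (TMM), so they describe shares of a library, and fewer cells of a type and less RNA per cell cannot be told apart. With KB742 the RAB3A level was 10.2, 8.58 and 9.21 CPM at 2 h, 6.14, 4.19 and 8.88 CPM at 4 h and 4.00, 10.0 and 11.8 CPM at 8 h. With KI-ARv-03 it was 7.77, 9.22 and 6.82 CPM at 2 h, 9.11, 4.77 and 6.07 CPM at 4 h and 8.48, 7.90 and 2.88 CPM at 8 h. With DMSO it was 9.73, 12.2 and 7.53 CPM at 0 h, 11.3, 14.7 and 19.1 CPM at 2 h, 21.0, 24.6 and 27.6 CPM at 4 h and 37.8, 56.8 and 59.0 CPM at 8 h. The DMSO libraries at 4 h and at 8 h lay above every library of 0 h and above every library of either compound, without overlap.

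On the log2(CPM + 1) scale, which understates the change of low genes, the RAB3A level rose by 2.27 ± 0.37 (SE) at 8 h with DMSO against 0 h (adjusted p = 2.57e-05, limma with Benjamini-Hochberg adjustment over all genes tested, as for every adjusted p here). At 4 h with DMSO it was 1.25 ± 0.37 (SE) above 0 h (adjusted p = 0.019), a call that was lost without 0 h replicate 1 (0.0513), 0 h replicate 3 (0.0904), DMSO 4 h replicate 2 (0.0513) or DMSO 4 h replicate 3 (0.0673), and with the deposited scaling (0.0888). At 8 h it was -2.52 ± 0.37 (SE) with KB742 (adjusted p = 0.000287) and -2.89 ± 0.37 (SE) with KI-ARv-03 (adjusted p = 3.79e-05), both against DMSO. At 4 h it was -1.82 with KB742 (adjusted p = 0.0456) and -1.76 with KI-ARv-03 (adjusted p = 0.07), and at 2 h -0.61 and -0.82 (adjusted p = 0.9997 and 0.998). The call at 4 h with KB742 was lost without DMSO 4 h replicate 1 (0.162), DMSO 4 h replicate 2 (0.207), DMSO 4 h replicate 3 (0.226), KB742 4 h replicate 1 (0.2) or KB742 4 h replicate 2 (0.46). The tests of whether the effect at 8 h differed from that at 2 h gave -1.91 with KB742 (adjusted p = 0.517) and -2.07 with KI-ARv-03 (adjusted p = 0.304), neither past the threshold.

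RAB3A also had the highest conversion of the family. The conversion level is the deposited fraction given here in percent, and values behind fewer than 20 reads were left out, so the compounds have few. They were 20.5, 24.2 and 15.2% at 2 h, 24.5 and 24.6% in 2 libraries at 4 h and 36.0% in 1 library at 8 h with KB742, and 11.8 and 17.7% in 2 libraries at 2 h, 9.47% in 1 at 4 h and 28.5% in 1 at 8 h with KI-ARv-03. With DMSO the conversion level was 1.44, 0.275 and 0% at 0 h, 13.6, 27.3 and 31.3% at 2 h, 35.1, 32.9 and 41.6% at 4 h and 39.2, 39.0 and 41.5% at 8 h. At 8 h with DMSO it ranked 30 of 6541 genes with a value, above 99.5% of them. The DMSO libraries after 0 h all lay above those of 0 h, and at 4 h also above both KB742 libraries, though this difference did not pass the test. At 2 h the libraries of both compounds overlapped those of DMSO, and neither difference was called. The difference from DMSO could not be tested at 8 h for either compound or at 4 h with KI-ARv-03, with 1 value each. MPV17L2, on the opposite strand, overlaps the 3′ end of RAB3A, and the counting is not stated to use strand, so reads of the 2 genes cannot be told apart. The level counted for MPV17L2 was 17.6 CPM at 8 h with DMSO and 35.9 CPM at 0 h, and its conversion was 1.64% at 8 h with DMSO. RAB1A, RAB3D, RAB5A, RAB6B, RAB14, RAB15, RAB23, RAB24 and RAB35 likewise have a coding gene of the opposite strand at or within 1 kb of their 3′ end (CEP68, TSPAN16, PP2D1, SRPRB, CNTRL, CHURC1-FNTB, BAG2, NSD1 and BICDL1). RAB1B, RAB4A, RAB5B, RAB5C, RAB8A, RAB13, RAB24 and RAB40C have one of the same strand (CNIH2, SPHAR, SUOX, AC099811.2, HSH2D, AL358472.6, MXD3 and WFIKKN1), and RAB4B overlaps read-through genes, with the same limit.

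**Figure D1:**
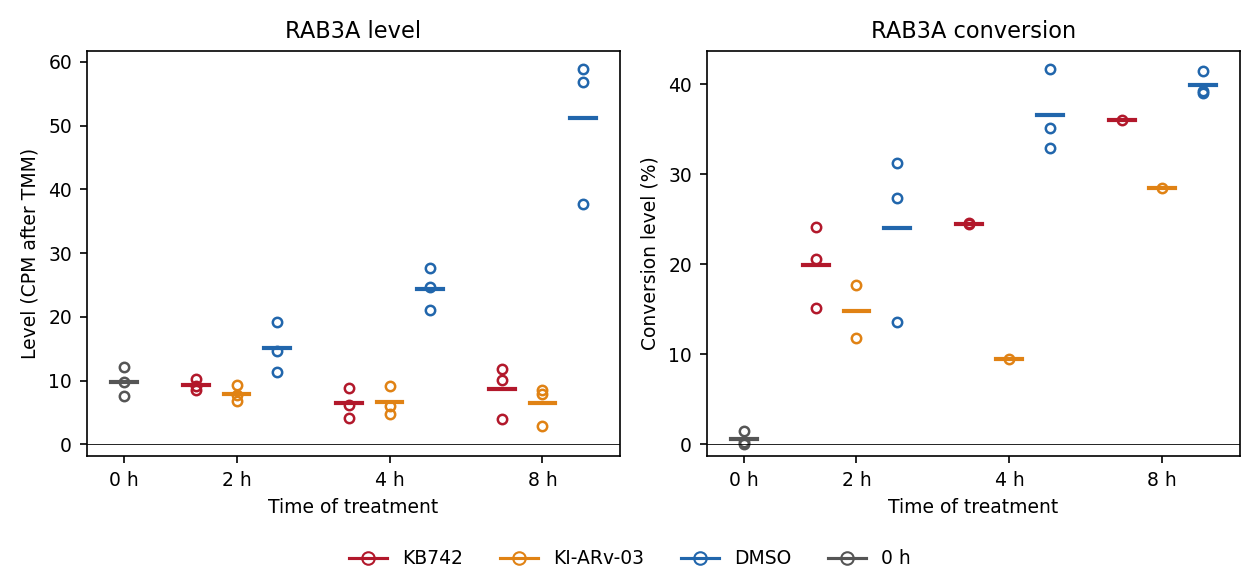
RAB3A by library, with the level in CPM after TMM scaling (left) and the conversion level in percent (right) against hours of treatment; circles are libraries and bars are group means. At 8 h no library of either compound exceeds 11.8 CPM, while the DMSO libraries reach 37.8 to 59.0 CPM, and conversion values behind fewer than 20 reads are absent.

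At 8 h with DMSO, 10 of the 48 members tested were higher than at 0 h and 12 were lower, and 26 did not pass the test. Over all genes tested, 20% were called higher and 29.1% lower in this comparison, 49.1% in all, so the share of members called, 22 of 48, is near the background. The median log2 difference was 0.05 over the members and -0.14 over all genes. The split depends on the scaling. With the deposited scaling the median over all genes shifted by -0.59, 3 members were called higher and 20 lower, and the medians were -0.62 over the members and -0.73 over all genes. Of all 11425 genes, 433 were called higher and 4904 lower with that scaling. Without the 3 libraries that stand apart, 21 members were called, with no share of all genes taken. At 2 h no member was called by limma (2 had an unadjusted p under 0.05, and edgeR and DESeq2 also called none), against 2.73% of all genes, and at 4 h there were 2, against 20.3% of all genes. Those 2 were RAB3A, above, and RAB20, which fell. With the deposited scaling 9 members were called at 4 h, all lower, against 66 higher and 2733 lower of all genes.

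**Figure D2:**
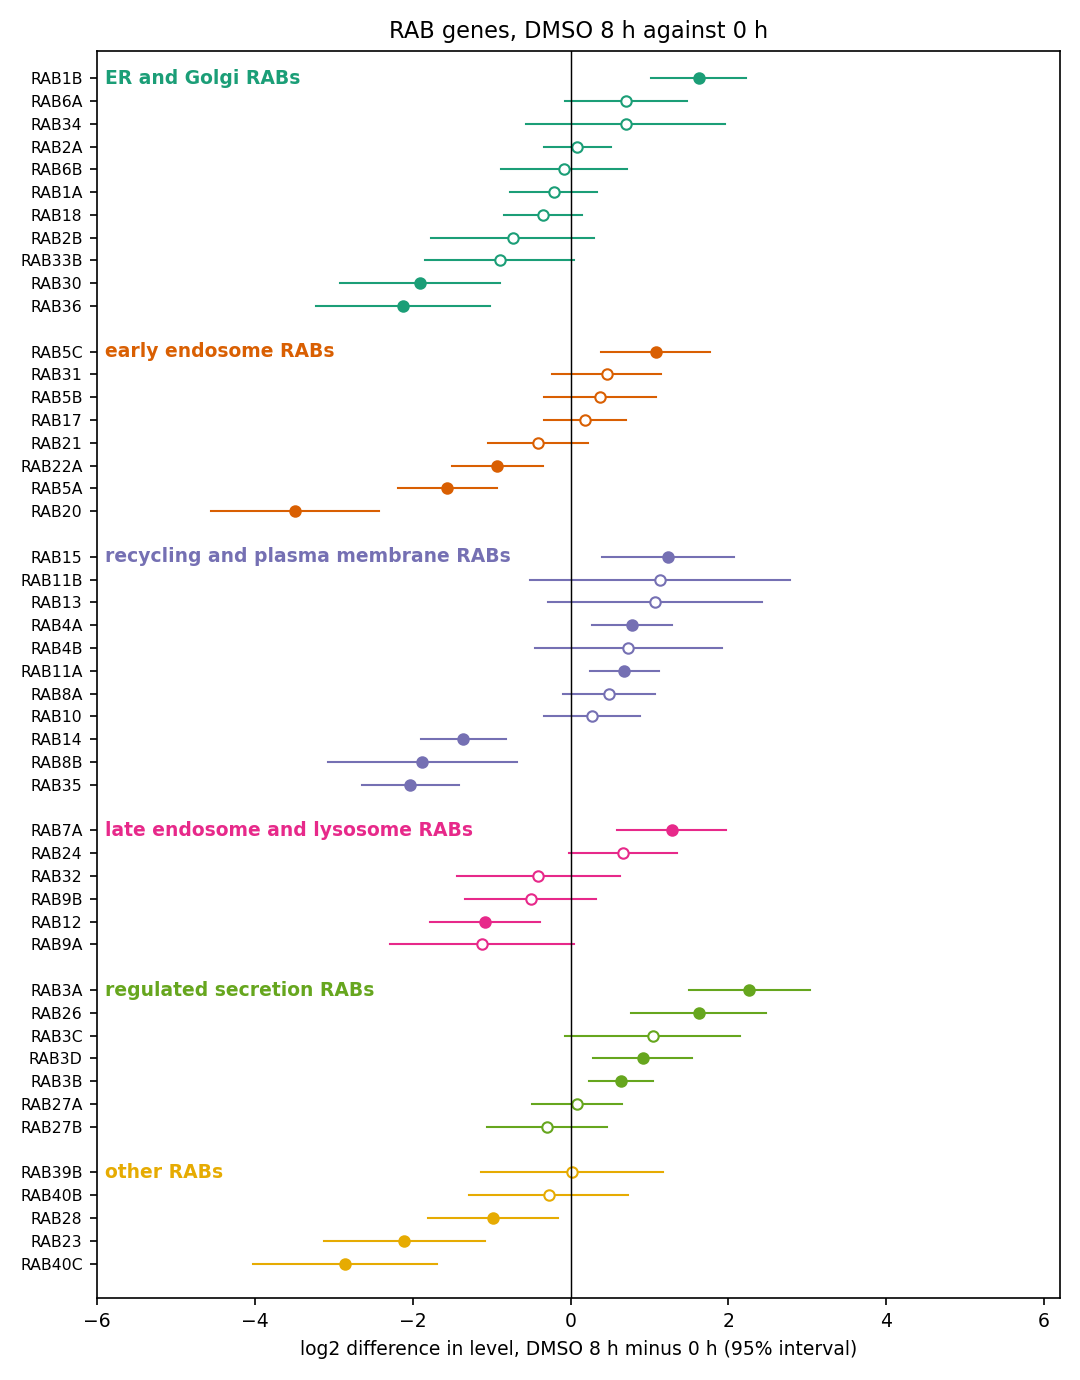
Log2 difference in level between 8 h with DMSO and 0 h for the 48 members that passed the filter, grouped by role; lines are 95% intervals and filled points passed the test. RAB3A lies farthest to the right at 2.27 and RAB20 farthest to the left at -3.49, and the regulated secretion group has no filled point left of 0.

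Among the RABs of regulated secretion, 4 of the 7 tested were higher at 8 h with DMSO and none lower, with a median of 0.91. This role group and those below were chosen with earlier results of these data known. RAB26, a RAB of secretory granules, had 32.8, 34.4 and 45.1 CPM at 8 h with DMSO and 16.4, 11.0 and 8.04 CPM at 0 h, without overlap, and rose by 1.62 (adjusted p = 0.00239). RAB3D, a RAB of exocrine granules and the member of this group with the most reads, had 118, 152 and 117 CPM at 8 h with DMSO and 64.5, 53.1 and 89.3 CPM at 0 h. All 3 DMSO libraries lay above the 0 h libraries, and the difference was 0.91 (adjusted p = 0.0154), lost without 0 h replicate 2 (0.0776) or DMSO 8 h replicate 2 (0.0652). With the deposited scaling the RAB3D difference was 0.17 and was not called (adjusted p = 0.671). With KB742 it had 174, 88.5 and 135, then 144, 111 and 90.4 and then 105, 160.3 and 157 CPM at 2, 4 and 8 h, and with KI-ARv-03 96.9, 142 and 139.9, then 99.5, 139 and 147 and then 103, 162 and 66.7 CPM, against 96.9, 73.5 and 118 CPM at 2 h and 94.9, 101 and 120.0 CPM at 4 h with DMSO. The ranges of compounds and DMSO overlapped at 8 h. RAB3B, of the same subfamily, was 0.64 higher (adjusted p = 0.00967, lost without DMSO 8 h replicate 2 (0.056)), and with the deposited scaling its difference was -0.0943. RAB27A and RAB27B, which dock secretory granules and exosomes at the plasma membrane, gave 0.08 and -0.30 and did not pass the test.

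Among the recycling and plasma membrane RABs, 3 of 11 were higher and 3 lower, with a median of 0.68. The 3 that rose were RAB15, of the recycling endosome (log2 difference 1.23, adjusted p = 0.0142), RAB4A, of fast recycling (0.78, adjusted p = 0.0106), and RAB11A, of slow recycling (0.68, adjusted p = 0.0107). RAB15 was lost without 0 h replicate 1 (0.059), 0 h replicate 2 (0.0571) or DMSO 8 h replicate 2 (0.0558), RAB4A without 0 h replicate 3 (0.104) or DMSO 8 h replicate 2 (0.054), and RAB11A without 0 h replicate 3 (0.0532). With the deposited scaling none of the 3 was called, and RAB11A turned to -0.0622. The 3 that fell were RAB35, which returns cargo to the surface and acts in cell division, RAB14, of traffic between endosomes and the Golgi, and RAB8B, of exocytosis. RAB35 had 10.5, 13.9 and 11.1 CPM at 8 h with DMSO and 55.0, 57.9 and 41.8 CPM at 0 h, far apart, a difference of -2.03 ± 0.30 (SE) (adjusted p = 6.4e-06). RAB14 had 43.3, 39.8 and 49.7 CPM at 8 h with DMSO and 90.01, 80.9 and 206 CPM at 0 h, again without overlap although replicate 3 at 0 h stood far above the others, and the difference was -1.36 (adjusted p = 0.000172). RAB8B, at low levels, gave -1.88 (adjusted p = 0.00995), lost without DMSO 8 h replicate 3 (0.103).

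RAB13, of tight junctions and the member with the most reads of all, varied between libraries. It had 194, 1366 and 441 CPM at 2 h, 1694, 898 and 162 CPM at 4 h and 384, 717 and 1153 CPM at 8 h with KB742. With KI-ARv-03 it had 227, 400.3 and 476 CPM at 2 h, 1069, 809 and 671 CPM at 4 h and 528, 896 and 723 CPM at 8 h. With DMSO it had 432, 397 and 907 CPM at 0 h, 669.6, 604 and 687 CPM at 2 h, 1102, 1066 and 254 CPM at 4 h and 1456, 826 and 1195 CPM at 8 h. Libraries of 1 group differed several fold, as at 4 h with KB742, and the difference at 8 h with DMSO, 1.07, did not pass the test (adjusted p = 0.184). RAB8A, of exocytosis and the primary cilium, gave 0.49 (adjusted p = 0.157), with 53.8, 66.5 and 62.6 CPM at 8 h with DMSO and 56.3, 49.2 and 28.5 CPM at 0 h, overlapping ranges.

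Among the early endosome RABs, 1 of 8 rose and 3 fell, with a median of -0.11. RAB5A and RAB5C, close relatives that drive the fusion of early endosomes, went opposite ways. RAB5A had 47.7, 37.5 and 28.6 CPM at 8 h with DMSO and 115, 145 and 83.6 CPM at 0 h, lower by a log2 difference of -1.56 (adjusted p = 0.000179). RAB5C had 276, 331 and 239 CPM at 8 h with DMSO and 135, 109 and 157 CPM at 0 h, a difference of 1.08 (adjusted p = 0.0096) that the deposited scaling lost. Neither gene had overlapping ranges. The third of them, RAB5B, has the most reads of this group and did not pass the test (0.38, adjusted p = 0.379).

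RAB5B had 244, 128 and 211 CPM at 2 h, 182, 125 and 163 CPM at 4 h and 168, 182 and 189 CPM at 8 h with KB742. With KI-ARv-03 it had 109, 229 and 244 CPM at 2 h, 149, 237 and 314 CPM at 4 h and 201, 236 and 155 CPM at 8 h. With DMSO it had 133, 150.5 and 213 CPM at 0 h, 108, 178 and 243 CPM at 2 h, 291, 147 and 164 CPM at 4 h and 188, 188 and 263 CPM at 8 h, and the groups overlapped throughout. RAB20, a RAB of endosomes and phagosomes, was the member that fell most. At 8 h it had 0, 0.501 and 0 CPM with KB742 and 0.807, 0 and 0.412 CPM with KI-ARv-03. With DMSO it had 9.73, 10.2 and 10.9 CPM at 0 h, 4.01, 3.10 and 1.06 CPM at 2 h, 0.489, 0.397 and 1.89 CPM at 4 h and 0, 0 and 0 CPM at 8 h. It had 0 reads over the 3 DMSO libraries at 8 h and 124 reads over the 3 libraries at 0 h. Against a floor of 3 counts over the group (0.567 CPM), the level at 8 h with DMSO was at least 18.1-fold lower than the 10.3 CPM at 0 h, counting error only. The adjusted p was 6.73e-06 at 8 h and 0.000715 at 4 h. RAB20 passed the filter only through the group where it is high. RAB22A, of early endosome sorting, was -0.93 at 8 h with DMSO (adjusted p = 0.00819), lost without DMSO 8 h replicate 1 (0.0676).

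Among the ER and Golgi RABs, 1 of 11 rose and 2 fell, with a median of -0.21. RAB1B, which acts in transport from the ER to the Golgi and has the most reads of this group, had 96.7, 143 and 153 CPM at 2 h, 228, 197 and 113 CPM at 4 h and 221, 338 and 245 CPM at 8 h with KB742. With KI-ARv-03 it had 112, 172 and 180.0 CPM at 2 h, 228, 185 and 286 CPM at 4 h and 259, 421 and 283 CPM at 8 h. With DMSO it had 112, 146 and 92.9 CPM at 0 h, 149, 132 and 191 CPM at 2 h, 207, 258 and 144 CPM at 4 h and 364, 387 and 321 CPM at 8 h. The libraries at 8 h with DMSO lay above all of 0 h, 1.62 ± 0.29 (SE) on the log2 scale (adjusted p = 7.24e-05), and overlapped those of both compounds. Its paralog RAB1A gave -0.21 and did not pass the test. CNIH2 lies on the same strand within 1 kb of RAB1B, and assignment of reads between them was not tested. The 2 that fell were both Golgi RABs at low levels, RAB36 with 1.24, 0.773 and 0.921 CPM at 8 h with DMSO and 6.69, 4.68 and 13.5 CPM at 0 h (-2.13, adjusted p = 0.00214), and RAB30 with 0, 1.16 and 0.921 CPM and 6.69, 6.91 and 2.60 CPM in the same groups (-1.91, adjusted p = 0.00249). In neither gene did the groups overlap.

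Among the late endosome and lysosome RABs, 1 of 6 rose and 1 fell, with a median of -0.46. RAB7A, which drives the fusion of late endosomes with lysosomes and has the most reads of this group, had 523, 208 and 408 CPM at 2 h, 339, 340.0 and 377 CPM at 4 h and 468, 807 and 462 CPM at 8 h with KB742. With KI-ARv-03 it had 341, 599.5 and 555 CPM at 2 h, 329.6, 450.4 and 634 CPM at 4 h and 495, 806 and 406 CPM at 8 h. With DMSO it had 210.4, 229 and 249 CPM at 0 h, 244, 303 and 486 CPM at 2 h, 429, 344 and 527 CPM at 4 h and 448, 569.7 and 683 CPM at 8 h. The 3 libraries at 8 h with DMSO lay above all of 0 h, a difference of 1.28 (adjusted p = 0.00281) that the deposited scaling lost. RAB12, of lysosomal degradation of receptors, fell by 1.09 on the log2 scale (adjusted p = 0.0105), with 54.5, 53.0 and 37.8 CPM at 8 h with DMSO and 92.4, 104 and 112 CPM at 0 h, without overlap. RAB9A, of return from late endosomes to the Golgi, gave -1.12 and did not pass the test.

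Of the remaining members, 3 of 5 fell and none rose, with a median of -0.98. RAB40C, whose SOCS box makes it an adaptor of a ubiquitin ligase, had 4.33, 6.18 and 0 CPM at 8 h with DMSO and 30.4, 19.5 and 21.8 CPM at 0 h (-2.86, adjusted p = 0.000208). RAB23, a brake on Hedgehog signalling, had 3.09, 3.48 and 2.76 CPM and 18.9, 21.6 and 11.4 CPM in the same groups (-2.11, adjusted p = 0.00109). Neither gene had overlapping groups. RAB28, of the photoreceptor cilium, gave -0.98 (adjusted p = 0.0432), lost without 0 h replicate 1 (0.189), 0 h replicate 2 (0.128), DMSO 8 h replicate 1 (0.148) or DMSO 8 h replicate 3 (0.0981).

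RAB40B, a relative of RAB40C and the member of this group with the most reads, had 14.2, 8.97 and 12.3 CPM at 2 h, 14.0, 18.0 and 21.8 CPM at 4 h and 21.2, 11.0 and 23.7 CPM at 8 h with KB742. With KI-ARv-03 it had 25.8, 14.0 and 14.4 CPM at 2 h, 22.1, 20.4 and 15.7 CPM at 4 h and 27.0, 8.96 and 28.8 CPM at 8 h. With DMSO it had 23.7, 32.5 and 3.89 CPM at 0 h, 18.6, 24.4 and 18.1 CPM at 2 h, 14.2, 15.9 and 12.5 CPM at 4 h and 16.1, 11.98 and 9.21 CPM at 8 h. The 0 h libraries alone spanned the range of all other libraries, and the difference at 8 h with DMSO, -0.28, did not pass the test.

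Conversion rose with time under DMSO and no member was called lower. At 8 h with DMSO, 19 of the 31 members tested had a higher conversion than at 0 h, against 42.8% of all genes called. At 4 h there were 19 of 36, against 34.7%, and at 2 h there were 4 of 39, against 8.51% (8.47% higher). Without the 3 libraries that stand apart the counts were 19 at 8 h, 18 at 4 h and 1 at 2 h. At 8 h with DMSO the median conversion was 1.44% over 31 members and 0.885% over the 6541 genes with a value.

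Among members with at least 2 values at 8 h with DMSO, RAB8A came after RAB3A in conversion. RAB33B and RAB35 had 1 value each there, 20.9% and 13.0%, both above the 10.9% of RAB8A in the same library. RAB8A had 0.458, 0.460 and 0.143% at 0 h, 1.97, 1.13 and 2.67% at 2 h, 5.94, 4.32 and 7.11% at 4 h and 9.39, 10.9 and 15.9% at 8 h with DMSO. Every library at 8 h lay above every library at 4 h, and these in turn above those of 2 h and 0 h. Its lowest library at 8 h also lay above the highest of RAB14, which had 0.198, 0.252 and 0.141% at 0 h, 0.253, 1.21 and 0.537% at 2 h, 1.12, 1.28 and 1.94% at 4 h and 3.60, 4.72 and 3.33% at 8 h with DMSO. Several further members called at 8 h overlapped one another in their libraries, so the order among these is not set by these data. They include RAB5B (3.06% ± 1.02 at 8 h with DMSO and 0.212% ± 0.165 at 0 h), RAB22A (2.70% ± 0.323 and 0.207% ± 0.157), RAB4A (2.31% ± 0.834 and 0.244% ± 0.191) and RAB1A (2.27% ± 0.807 and 0.0780% ± 0.0897; mean ± SD, n = 3 each). Their adjusted p-values were 3.28e-06, 0.000372, 6.82e-05 and 1.27e-06 in limma, and those of RAB3A, RAB8A and RAB14 were 5.59e-11, 3.59e-11 and 9.34e-08.

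The others among the 12 with the largest change at 8 h on the arcsine scale of the test, whose order can differ from that of the percentage points printed, were RAB27B (a rise of 2.28 percentage points, adjusted p = 0.0107), RAB18 of the ER and lipid droplets (1.85, 6.75e-05), RAB5A (1.31, 0.000167), RAB21 of integrin traffic (1.63, 0.00304) and RAB3B (1.05, 0.00169). RAB27B was lost without 0 h replicate 3 (0.0645) and RAB21 without DMSO 8 h replicate 3 (0.0611). At 8 h with DMSO, every library of RAB5B and of RAB22A lay above all libraries of RAB5A and RAB3B in conversion. By role, 5 of 7 early endosome, 6 of 9 recycling, 4 of 6 secretion, 3 of 5 ER and Golgi, 1 of 3 late endosome and none of 1 other members tested rose. RAB5A, RAB14 and RAB22A thus rose in conversion while their level fell, RAB3A rose in both, and RAB8A rose in conversion with a level that did not pass the test.

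At 4 h with DMSO the 12 members with the largest change on the arcsine scale were RAB3A (a rise of 36.0 percentage points, adjusted p = 6.42e-10), RAB33B of Golgi and autophagy (12.7, 2.2e-05), RAB35 (5.59, 0.00024), RAB8A (5.44, 1.13e-06), RAB40C (5.46, 0.00524), RAB23 (3.49, 0.0206), RAB5B (1.75, 0.000405), RAB5A (1.22, 0.000563), RAB4A (1.42, 0.0019), RAB14 (1.25, 0.00273), RAB1A (0.750, 0.00462) and RAB21 (0.921, 0.0281). RAB23 was lost without 0 h replicate 3 (0.0782) and RAB21 without 0 h replicate 3 (0.125), DMSO 4 h replicate 2 (0.0522) or DMSO 4 h replicate 3 (0.115). RAB35, RAB40C and RAB33B had fewer than 2 values behind at least 20 reads at 8 h with DMSO, and so have no test there. RAB35 had 0.507, 0.278 and 0% at 0 h, 2.85, 1.69 and 1.43% at 2 h, 8.73, 5.83 and 2.98% at 4 h and, in 1 library, 13.0% at 8 h with DMSO. RAB33B had 11.3, 15.98 and 13.9% at 4 h with DMSO and 1.15, 1.68 and 0.266% at 0 h, far apart.

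At 2 h the 4 called members were RAB3A (adjusted p = 1.3e-06), RAB27B (0.024), RAB33B (0.0289) and RAB8A (0.0459). RAB3A was called with any library left out. RAB27B was lost without 0 h replicate 1 (0.0606), 0 h replicate 3 (0.173), DMSO 2 h replicate 2 (0.0823) or DMSO 2 h replicate 3 (0.103). RAB33B was lost without 0 h replicate 1 (0.0546) or 0 h replicate 3 (0.138). RAB8A was lost without 0 h replicate 1 (0.0658), 0 h replicate 2 (0.0738), 0 h replicate 3 (0.211), DMSO 2 h replicate 1 (0.0871) or DMSO 2 h replicate 3 (0.206).

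**Figure D3:**
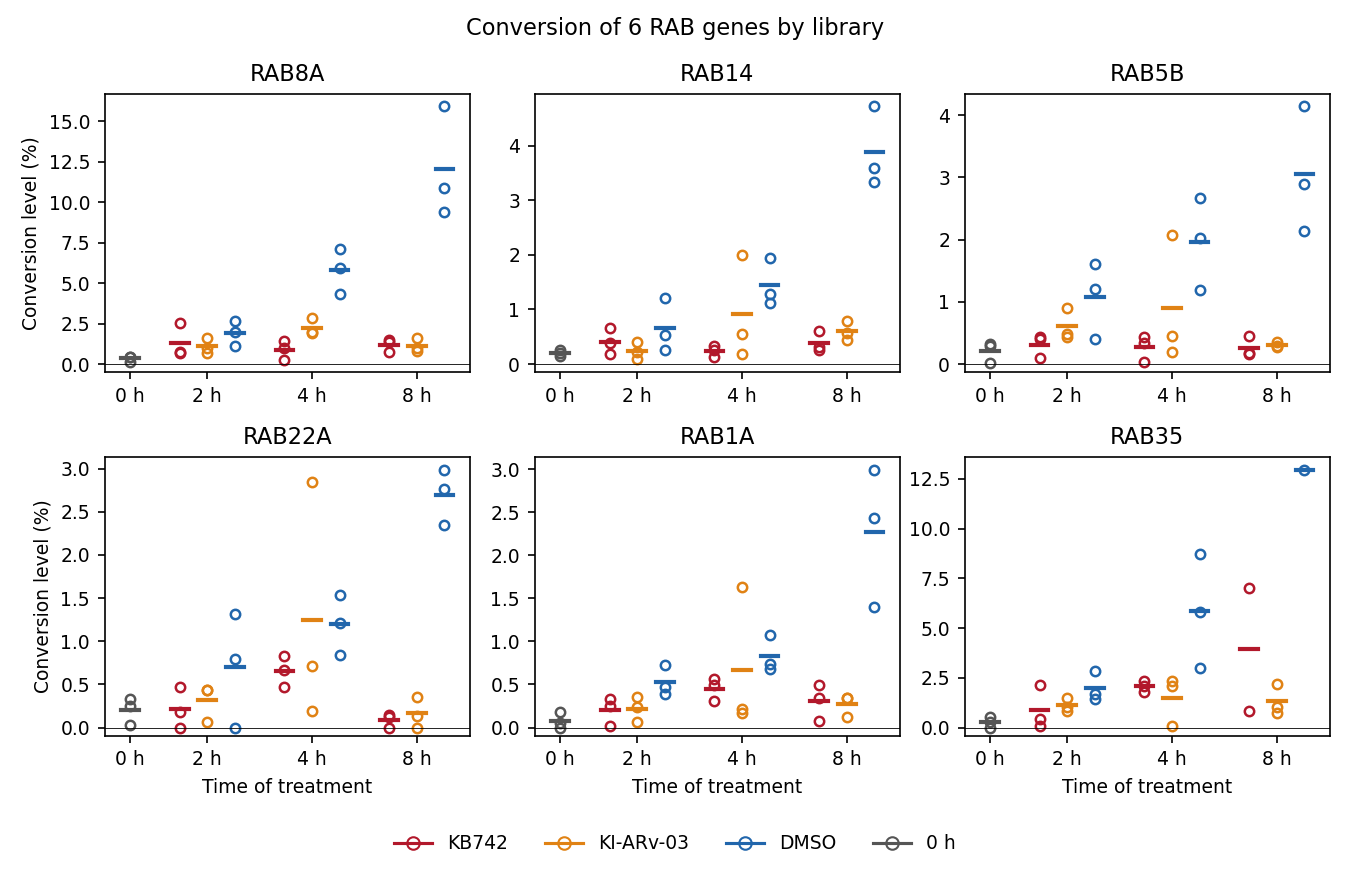
Conversion level in percent by library against hours of treatment for 6 members; circles are libraries, bars are group means, and values behind fewer than 20 reads are absent. RAB8A stays at or below 1.59% at 8 h with either compound and reaches 9.39% to 15.9% at 8 h with DMSO, and the highest circle of KI-ARv-03 at 4 h in most panels is replicate 1.

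Few members differed in level between a compound and DMSO. At 8 h, 2 of 48 were called with KB742 (1.84% of all genes) and 2 of 48 with KI-ARv-03 (2.91%). RAB3A, described above, was lower with each. With KB742 RAB14 was also called, with 78.9, 95.2 and 98.4 CPM with KB742, 69.0, 83.3 and 63.0 CPM with KI-ARv-03 and 43.3, 39.8 and 49.7 CPM with DMSO at 8 h. Both compounds lay above DMSO in every library, by 1.02 ± 0.27 (SE) with KB742 (adjusted p = 0.0421) and 0.68 ± 0.27 (SE) with KI-ARv-03 (adjusted p = 0.164), and the second did not pass the test. The call with KB742 was lost without DMSO 8 h replicate 1 (0.0842), DMSO 8 h replicate 2 (0.0999), DMSO 8 h replicate 3 (0.0731), KB742 8 h replicate 1 (0.0703), KB742 8 h replicate 2 (0.105) or KB742 8 h replicate 3 (0.111), and edgeR gave an adjusted p of 0.0689. With KI-ARv-03 RAB22A was called, with 87.3, 55.6 and 50.3 CPM with KB742, 84.0, 62.2 and 90.6 CPM with KI-ARv-03 and 24.1, 50.2 and 30.4 CPM with DMSO at 8 h. All KI-ARv-03 and KB742 libraries lay above all DMSO libraries, though KB742 replicate 3 by a small margin. The differences were 0.89 ± 0.28 (SE) with KB742 (adjusted p = 0.107) and 1.20 ± 0.28 (SE) with KI-ARv-03 (adjusted p = 0.0176). The call with KI-ARv-03 was lost without DMSO 8 h replicate 1 (0.0658), DMSO 8 h replicate 3 (0.0687), KI-ARv-03 8 h replicate 1 (0.0734) or KI-ARv-03 8 h replicate 3 (0.112).

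In fits of the 2 groups alone none of these calls at 8 h held, RAB3A included (KB742 at an adjusted p of 0.0869, KI-ARv-03 at 0.0628). For KB742 and KI-ARv-03 in that order, the median difference over the members at 8 h was 0.07 and 0.09, against -0.03 and 0.003 over all genes. With the deposited scaling 2 members were called higher and 1 lower with KB742, and 1 and 1 with KI-ARv-03. Of all genes, 209 were called higher and 32 lower with KB742 in that setting, and 290 and 43 with KI-ARv-03. At 4 h RAB3A alone was called with KB742 (0.114% of all genes) and no member with KI-ARv-03 by limma (0.07%), where 4 members had an unadjusted p under 0.05, edgeR called none and DESeq2 called RAB3A (adjusted p = 0.00204). At 2 h no member was called with either compound by limma (0.0263% of all genes for each), 1 member with KB742 and 2 with KI-ARv-03 had an unadjusted p under 0.05, and edgeR and DESeq2 called none. The tests of a difference between the effects at 8 h and 2 h called no member in level by limma for either compound (0.00875% of all genes for each), with 3 members for KB742 and 4 for KI-ARv-03 at an unadjusted p under 0.05.

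**Figure D4:**
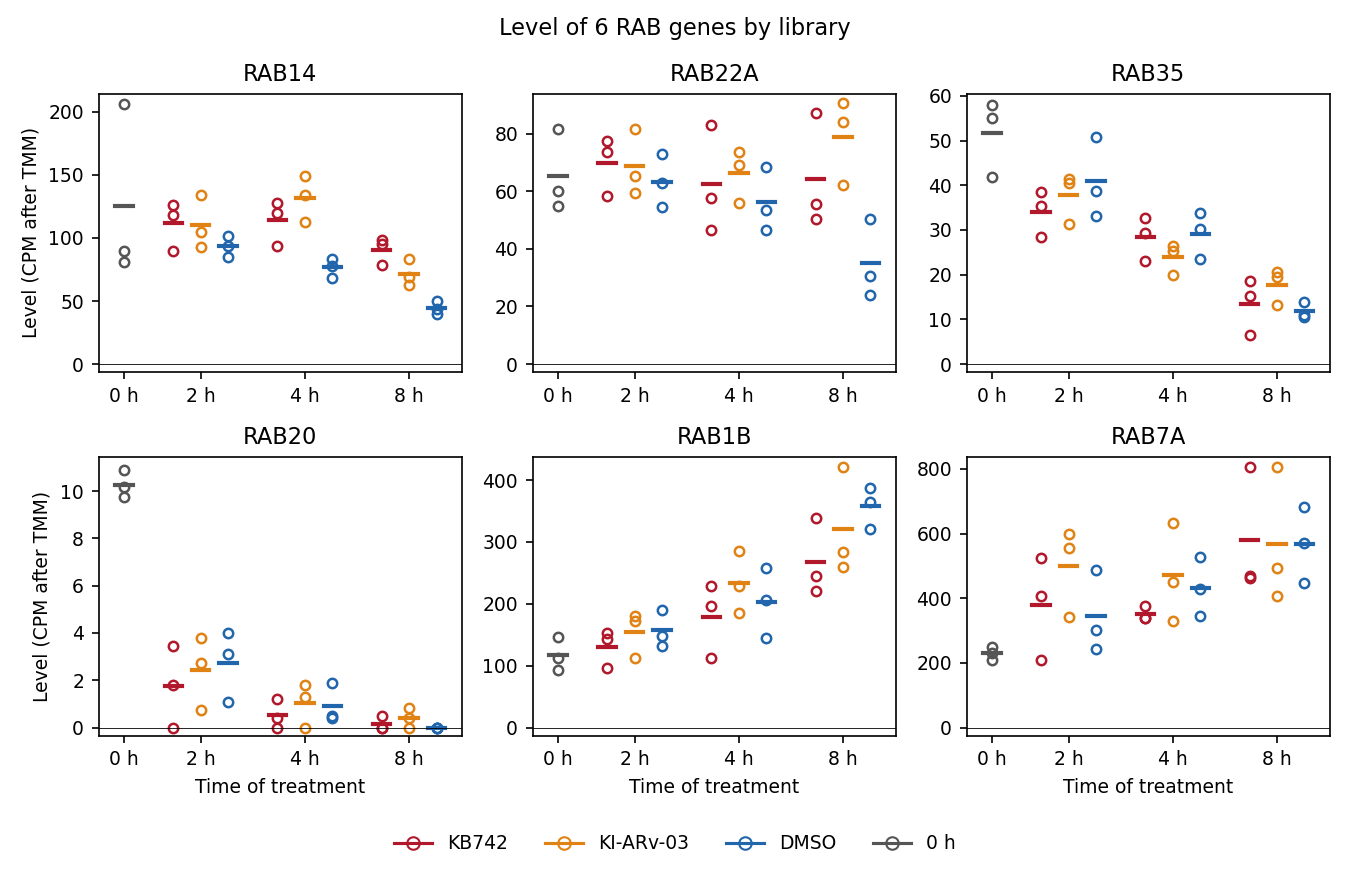
Level in CPM after TMM scaling by library against hours of treatment for 6 members; circles are libraries and bars are group means. RAB14 and RAB22A lie higher with both compounds than with DMSO at 8 h, RAB35 and RAB20 lie below 0 h in all treatments at 8 h, and RAB1B and RAB7A lie above it.

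In conversion the members differed widely between compounds and DMSO, and all calls were lower with the compound. At 8 h, 15 of 30 members were lower with KB742 (34.6% of all genes called lower) and 18 of 30 with KI-ARv-03 (36.8%). At 4 h, 8 of 35 were lower with KB742 (17.5% called, 17.4% lower) and 2 of 35 with KI-ARv-03 (7.36%, 7.3% lower). At 2 h, 1 of 38 was lower with KB742 (0.852%) and none of 39 with KI-ARv-03 by limma (0.82%), where 6 members had an unadjusted p under 0.05. No tool other than limma was run on conversion. Without the 3 libraries that stand apart, the counts at 8 h were 19 and 21, those at 4 h 13 and 16 and those at 2 h 1 and 2, for KB742 and KI-ARv-03 in that order. Without KI-ARv-03 4 h replicate 1 alone, 13 members were called at 4 h with KI-ARv-03. The share of all genes called was not taken in these refits, so whether the members moved with the background was not tested.

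Over the 29 members with values in every group, the median conversion at 8 h was 0.305% with KB742, 0.185% with KI-ARv-03 and 1.37% with DMSO, and it was 0.14% at 0 h. Over all 6063 such genes these medians were 0.238%, 0.215%, 0.849% and 0.209%. Of the 29, 28 had a lower mean with KB742 than with DMSO at 8 h and all 29 had a lower one with KI-ARv-03. These 2 comparisons share their DMSO libraries. The matching count over all genes was not made, and the median of all genes was lower with both compounds too. RAB15 was the exception with KB742, with 0.521 and 0% in 2 libraries with KB742 and 0, 0.146 and 0% with DMSO.

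**Figure D5:**
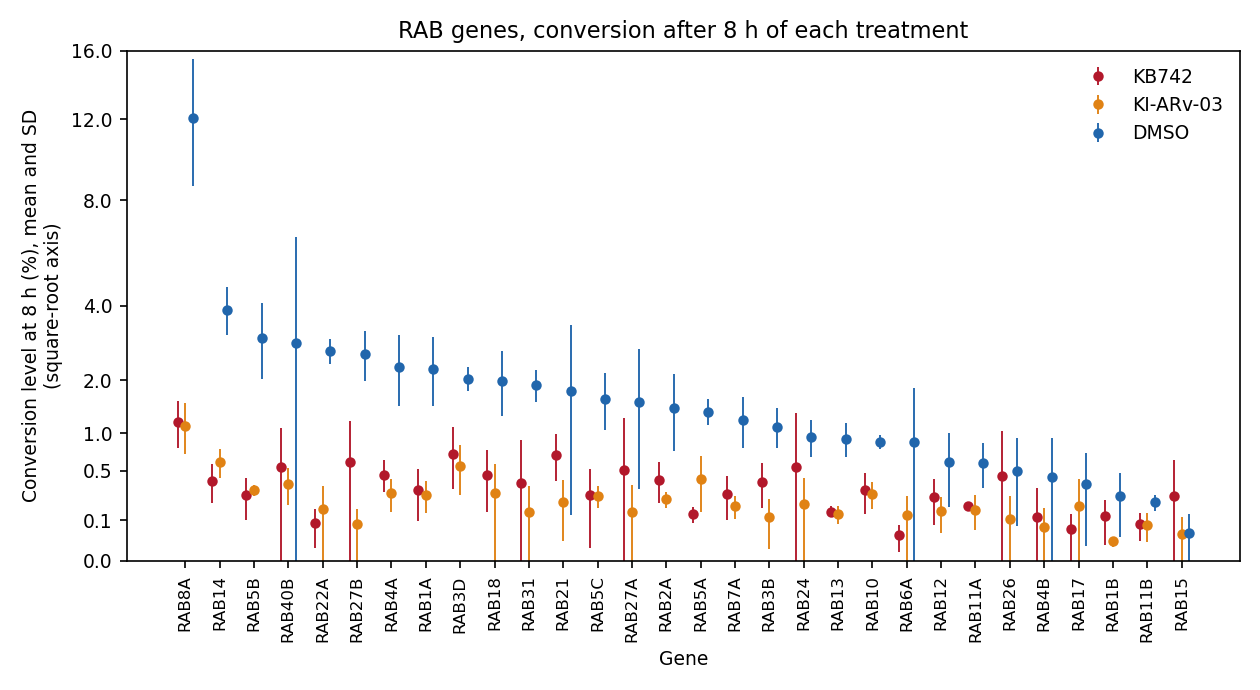
Conversion level at 8 h for the members with at least 2 values in each 8 h group, which adds RAB31 to the 29 with values in every group. Points and bars are mean and SD over the libraries with at least 20 reads, on a square-root axis. Bars that would pass below 0 end at 0. The DMSO points lie above both compounds for all members but RAB15, where KB742 lies higher, with RAB8A highest at 12.1%, and RAB3A is absent because it had 1 value with each compound.

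RAB8A had 0.728, 1.46 and 1.35% with KB742, 0.973, 0.800 and 1.59% with KI-ARv-03 and 9.39, 10.9 and 15.9% with DMSO at 8 h. No compound library came near a DMSO library, and the differences were -10.9 percentage points with KB742 (adjusted p = 8.57e-09) and -11.0 with KI-ARv-03 (1.9e-08). RAB14 had 0.607, 0.306 and 0.265% with KB742, 0.560, 0.449 and 0.789% with KI-ARv-03 and 3.60, 4.72 and 3.33% with DMSO (adjusted p = 2.33e-06 and 1.64e-05). RAB22A had 0.118, 0.143 and 0% with KB742, 0.359, 0 and 0.133% with KI-ARv-03 and 2.76, 2.35 and 2.98% with DMSO (0.000132 and 0.000346). In RAB14 and RAB22A too the groups were far apart, while their levels lay higher with the compounds. RAB5B had 0.180, 0.449 and 0.161% with KB742, 0.356, 0.289 and 0.272% with KI-ARv-03 and 2.13, 4.14 and 2.90% with DMSO (2e-05 and 6.06e-05).

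The other members called with KB742 at 8 h, each with its difference in percentage points and adjusted p, were RAB1A (-1.97, 0.000143), RAB5C (-1.35, 0.000183), RAB4A (-1.85, 0.00156), RAB5A (-1.24, 0.00202), RAB18 (-1.54, 0.00422), RAB6A (-0.820, 0.0204), RAB3D (-1.33, 0.00738), RAB7A (-0.941, 0.000793), RAB13 (-0.764, 3e-05), RAB2A (-1.04, 0.0209) and RAB10 (-0.567, 0.03). They span all routes from the ER (RAB1A, RAB2A, RAB18) and Golgi (RAB6A) through the endosomes (RAB5A, RAB5C, RAB7A) to the surface (RAB3D, RAB4A, RAB10, RAB13). RAB6A was lost without DMSO 8 h replicate 3 (0.208) or KB742 8 h replicate 3 (0.0809). RAB2A was lost without DMSO 8 h replicate 2 (0.0803), DMSO 8 h replicate 3 (0.119) or KB742 8 h replicate 3 (0.101). RAB10 was lost without DMSO 8 h replicate 1 (0.0594), DMSO 8 h replicate 2 (0.0797), KB742 8 h replicate 2 (0.146) or KB742 8 h replicate 3 (0.0502). With KI-ARv-03 at 8 h the other members among the 12 with the largest change on the arcsine scale were RAB27B (-2.54, 0.00338), RAB1A (-2.01, 0.000143), RAB4A (-2.03, 0.000365), RAB18 (-1.71, 0.000759), RAB21 (-1.56, 0.00739), RAB3B (-0.985, 0.0057), RAB5C (-1.35, 0.000668) and RAB3D (-1.49, 0.00182). RAB21 was lost without DMSO 8 h replicate 3 (0.0983) or KI-ARv-03 8 h replicate 2 (0.0568).

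At 4 h with KB742 the called members were RAB8A (-4.89, 0.000161), RAB5B (-1.70, 0.00292), RAB14 (-1.21, 0.0111), RAB5C (-1.11, 0.00802), RAB5A (-0.997, 0.0317), RAB2A (-0.934, 0.026), RAB13 (-0.594, 0.00128) and RAB7A (-0.484, 0.0367), again as percentage points and adjusted p. RAB5A was lost without DMSO 4 h replicate 2 (0.0593), DMSO 4 h replicate 3 (0.168), KB742 4 h replicate 1 (0.0618), KB742 4 h replicate 2 (0.0548) or KB742 4 h replicate 3 (0.117). RAB7A was lost without DMSO 4 h replicate 2 (0.107), DMSO 4 h replicate 3 (0.0944), KB742 4 h replicate 1 (0.17) or KB742 4 h replicate 2 (0.0888). RAB2A was lost without DMSO 4 h replicate 1 (0.127), DMSO 4 h replicate 3 (0.0667), KB742 4 h replicate 1 (0.0615) or KB742 4 h replicate 2 (0.0854), RAB14 without DMSO 4 h replicate 3 (0.0632) or KB742 4 h replicate 1 (0.058) and RAB5C without KB742 4 h replicate 1 (0.051). At 4 h with KI-ARv-03 the called members were RAB35 (-4.34, 0.0411) and RAB8A (-3.54, 0.0207). RAB35 was lost without DMSO 4 h replicate 1 (0.207), DMSO 4 h replicate 2 (0.0842), KI-ARv-03 4 h replicate 2 (0.0574) or KI-ARv-03 4 h replicate 3 (0.287), and RAB8A without DMSO 4 h replicate 1 (0.0638), DMSO 4 h replicate 3 (0.127), KI-ARv-03 4 h replicate 2 (0.0944) or KI-ARv-03 4 h replicate 3 (0.0913). At 2 h with KB742 RAB3D alone was called (-1.14, 0.0277), with 0.365, 0.0440 and 0.103% with KB742 and 1.04, 1.85 and 1.05% with DMSO, without overlap, and it was lost without DMSO 2 h replicate 2 (0.139), DMSO 2 h replicate 3 (0.0803), KB742 2 h replicate 2 (0.188) or KB742 2 h replicate 3 (0.0896).

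The effect on conversion was larger at 8 h than at 2 h for some members. In the test of that difference, RAB8A and RAB14 were called with KB742 (4.66% of all genes) and RAB8A, RAB14 and RAB5B with KI-ARv-03 (5.47%). For RAB8A the effect at 8 h minus that at 2 h was -10.3 percentage points with KB742 (adjusted p = 0.000269) and -10.1 with KI-ARv-03 (0.000337). For RAB14 it was -3.23 with KB742 (0.00697) and -2.85 with KI-ARv-03 (0.0468), and for RAB5B -2.29 with KI-ARv-03 (0.0447). With KI-ARv-03 RAB14 was lost without DMSO 2 h replicate 1 (0.149), DMSO 2 h replicate 3 (0.0794), DMSO 8 h replicate 2 (0.134), DMSO 8 h replicate 3 (0.0561), KI-ARv-03 2 h replicate 1 (0.117), KI-ARv-03 2 h replicate 2 (0.0519), KI-ARv-03 2 h replicate 3 (0.0865), KI-ARv-03 8 h replicate 1 (0.0696), KI-ARv-03 8 h replicate 2 (0.111) or KI-ARv-03 8 h replicate 3 (0.0641). RAB5B was lost without DMSO 2 h replicate 1 (0.154), DMSO 2 h replicate 3 (0.0532), DMSO 8 h replicate 2 (0.148), DMSO 8 h replicate 3 (0.0727), KI-ARv-03 2 h replicate 1 (0.111), KI-ARv-03 2 h replicate 2 (0.0621), KI-ARv-03 2 h replicate 3 (0.066), KI-ARv-03 8 h replicate 1 (0.0543), KI-ARv-03 8 h replicate 2 (0.086) or KI-ARv-03 8 h replicate 3 (0.089).

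The genes that load, unload and read the RABs were taken from a list of 100, of which 91 passed the filter. At 8 h with DMSO 6 of the 91 were higher than at 0 h and 32 lower, with a median log2 difference of -0.62, against 20% of all genes called higher, 29.1% lower and a median of -0.14. Among the exchange factors 3 of 23 rose and 13 fell, among the GTPase-activating genes 1 of 24 rose and 9 fell, among the effectors 1 of 36 rose and 9 fell, and among the prenylation and recycling genes 1 of 8 rose and 1 fell. RABGGTB, a subunit of the enzyme that prenylates RABs, had 3.91 ± 3.39 CPM at 8 h with DMSO and 14.6 ± 7.37 CPM at 0 h (adjusted p = 0.0306), lost without 0 h replicate 1 (0.0822), 0 h replicate 2 (0.125), DMSO 8 h replicate 1 (0.156) or DMSO 8 h replicate 3 (0.0753). Values here are mean ± SD over 3 libraries.

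Of the exchange factors that rose, HPS1, part of the factor for RAB32 and RAB38, had 61.5 ± 4.11 CPM at 8 h with DMSO and 21.3 ± 7.53 CPM at 0 h (adjusted p = 0.00387). DENND6B and DENND1C, DENN domain proteins, had 5.93 ± 4.53 CPM and 7.54 ± 2.63 CPM at 8 h with DMSO, against 0.879 ± 0.914 CPM and 2.50 ± 2.23 CPM at 0 h (adjusted p = 0.0216 and 0.0168). DENND6B was lost without 0 h replicate 3 (0.107) or DMSO 8 h replicate 3 (0.142), and DENND1C without 0 h replicate 3 (0.202) or DMSO 8 h replicate 1 (0.0734). With the deposited scaling none of the 5 regulators named here as higher at 8 h with DMSO (HPS1, DENND6B, DENND1C, TBC1D5 and MYO5B) passed the test. Of those that fell, MON1B, part of the exchange factor for RAB7, had 1.60 ± 1.39 CPM at 8 h with DMSO and 21.0 ± 7.12 CPM at 0 h (adjusted p = 4.84e-06). DENND5A fell to 9.19 ± 3.98 CPM at 8 h with DMSO, against 36.5 ± 13.3 CPM at 0 h (adjusted p = 8.35e-05). TBC1D5, a GTPase-activating protein for RAB7, rose to 110.2 ± 18.1 CPM at 8 h with DMSO, against 47.6 ± 6.75 CPM at 0 h (adjusted p = 0.000267). TBC1D10A, TBC1D30 and TBC1D25 fell, with log2 differences of -2.80, -2.48 and -2.32 (adjusted p = 0.000139, 0.000601 and 0.00172). MYO5B, the motor bound by RAB11, rose to 51.0 ± 10.8 CPM, against 17.8 ± 3.11 CPM at 0 h (adjusted p = 0.00144). RIMS1, the RAB3 effector of the active zone, PLEKHM1, a RAB7 effector, and the golgin GOLGA5 fell, with log2 differences of -2.43, -2.42 and -2.17 (adjusted p = 6.94e-05, 0.000387 and 7.44e-05).

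Against DMSO at 8 h, 3 of the 91 were called in level with KB742 (1.84% of all genes) and 5 with KI-ARv-03 (2.91%). RABIF, which binds nucleotide-free RABs, had 3.67 ± 1.15 CPM with KB742, 3.78 ± 2.06 CPM with KI-ARv-03 and 19.2 ± 8.90 CPM with DMSO (adjusted p = 0.00462 and 0.00309), lost with KB742 without DMSO 8 h replicate 3 (0.0707) and with KI-ARv-03 without DMSO 8 h replicate 3 (0.0513). RAB3GAP2, a subunit of the complex that acts on RAB3 and RAB18, had 48.4 ± 17.9 CPM with KB742, 41.7 ± 7.19 CPM with KI-ARv-03 and 19.7 ± 3.57 CPM with DMSO (adjusted p = 0.00882 and 0.0197). It was lost with KB742 without DMSO 8 h replicate 3 (0.0529) or KB742 8 h replicate 3 (0.068) and with KI-ARv-03 without DMSO 8 h replicate 3 (0.0884), KI-ARv-03 8 h replicate 1 (0.0524) or KI-ARv-03 8 h replicate 3 (0.132). DENND5A had 23.9 ± 5.58 CPM with KB742, 22.6 ± 3.82 CPM with KI-ARv-03 and 9.19 ± 3.98 CPM with DMSO (adjusted p = 0.0381 and 0.0407). It was lost with KB742 without DMSO 8 h replicate 3 (0.252), KB742 8 h replicate 1 (0.154) or KB742 8 h replicate 2 (0.0892) and with KI-ARv-03 without DMSO 8 h replicate 3 (0.207), KI-ARv-03 8 h replicate 1 (0.119) or KI-ARv-03 8 h replicate 3 (0.181). With KI-ARv-03 RABGGTB and DENND6A were also called, with 24.3 ± 15.9 CPM and 41.7 ± 8.35 CPM with KI-ARv-03, against 3.91 ± 3.39 CPM and 21.9 ± 4.09 CPM with DMSO (adjusted p = 0.046 and 0.048). RABGGTB was lost without DMSO 8 h replicate 1 (0.146), DMSO 8 h replicate 3 (0.139), KI-ARv-03 8 h replicate 1 (0.102) or KI-ARv-03 8 h replicate 3 (0.266), and DENND6A without DMSO 8 h replicate 2 (0.0838), DMSO 8 h replicate 3 (0.134), KI-ARv-03 8 h replicate 1 (0.168) or KI-ARv-03 8 h replicate 3 (0.201). In fits of the 2 groups alone none of these calls was made.

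In conversion 17 of 45 regulators and effectors tested were higher at 8 h with DMSO than at 0 h and none lower, against 42.8% of all genes called higher. With KB742 17 of 41 were lower than with DMSO at 8 h (34.6% of all genes lower) and with KI-ARv-03 15 of 41 (36.8%), with none higher, so all 3 shares are near the background. RABIF had 30.9% ± 5.91 at 8 h with DMSO and 0.812% ± 0.172 at 0 h (adjusted p = 3.33e-07). BICD2, a RAB6 effector that links vesicles to dynein, had 29.3% ± 5.55 at 8 h with DMSO and 1.24% ± 0.400 at 0 h (adjusted p = 6.59e-13). Others that rose, as mean ± SD at 8 h with DMSO and at 0 h over the libraries with a value, were TBC1D9 (14.7% ± 4.43 and 2.06% ± 1.40), EVI5L (10.4% ± 0.137 and 0.0550% ± 0.0953), RILP (6.14% ± 0.440 and 0.233% ± 0.330), RAB11FIP1 (5.73% ± 2.49 and 0.691% ± 0.505), HPS4 (5.02% ± 0.0672 and 0.592% ± 0.441), TBC1D14 (3.20% ± 1.02 and 0.131% ± 0.146), DENND4B (1.80% ± 0.624 and 0.108% ± 0.0526) and GDI2 (0.673% ± 0.307 and 0.148% ± 0.111). GDI2 was lost without 0 h replicate 3 (0.151), DMSO 8 h replicate 2 (0.139) or DMSO 8 h replicate 3 (0.0744).

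With the compounds, BICD2 had 6.71% ± 3.17 with KB742, 4.41% ± 2.04 with KI-ARv-03 and 29.3% ± 5.55 with DMSO at 8 h (adjusted p = 1.14e-08 and 3.52e-09). TBC1D9 had 0.836% ± 0.2499 with KB742, 0.698% ± 0.637 with KI-ARv-03 and 14.7% ± 4.43 with DMSO at 8 h (adjusted p = 5.93e-05 and 4.14e-05). RAB11FIP1, a RAB11 effector, had 0.529% ± 0.490 with KB742, 0.523% ± 0.462 with KI-ARv-03 and 5.73% ± 2.49 with DMSO at 8 h (adjusted p = 0.000876 and 0.00163). RAB3IP is the exchange factor for RAB8. RAB3IP had 0.125% ± 0.0626 with KB742, 0.0990% ± 0.00755 with KI-ARv-03 and 1.45% ± 0.750 with DMSO at 8 h (adjusted p = 0.000404 and 0.000328). RAB3GAP2 had 0.490% ± 0.285 with KB742, 0.648% ± 0.238 with KI-ARv-03 and 4.41% ± 0.170 with DMSO at 8 h (adjusted p = 0.00248 and 0.0061), while its level was higher with both compounds. CHML, an escort of RABs to the prenylating enzyme, was lower too, with 0.345% ± 0.346 with KB742, 0.288% ± 0.184 with KI-ARv-03 and 3.78% ± 2.27 with DMSO at 8 h (adjusted p = 0.00177 and 0.00272). GDI2 and DENND4B were also called with both compounds, and each was lost without DMSO 8 h replicate 3 with either compound, at adjusted p-values of 0.0643 with KB742 and 0.0885 with KI-ARv-03 for GDI2, and 0.0504 and 0.0793 for DENND4B. With KB742 GDI2 was also lost without DMSO 8 h replicate 2 (0.114), KB742 8 h replicate 1 (0.0616) or KB742 8 h replicate 3 (0.0725) and DENND4B without DMSO 8 h replicate 2 (0.0693) or KB742 8 h replicate 2 (0.101). With KI-ARv-03 GDI2 was also lost without DMSO 8 h replicate 2 (0.151), KI-ARv-03 8 h replicate 1 (0.0661), KI-ARv-03 8 h replicate 2 (0.0862) or KI-ARv-03 8 h replicate 3 (0.0674) and DENND4B without DMSO 8 h replicate 2 (0.102), KI-ARv-03 8 h replicate 1 (0.0888) or KI-ARv-03 8 h replicate 2 (0.11).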

How the data were processed

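SLAM-seq libraries of 22Rv1 cells were made with the QuantSeq 3′ kit, and ERCC spike-in RNA was added, per the labels' protocols. The spike-in was not used here. The build was hg19, per the submitters' processing notes, with aligner and conversion caller not given in the sources used here. The expression values deposited by the authors are a signal that scales reads to library size. Dividing each by the value of 1 read gave whole reads within 0.05 for 100.0% of values in every library. The conversion values deposited by the authors are a fraction of 0 to 1 per transcript, and the numbers of bases behind it are not in the table used here. Of 50925 identifiers, 50153 (98.5%) matched a gene symbol.

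Each member was represented by its coding transcript with the highest summed CPM, and each other gene by its transcript with the most reads, coding or not. Levels were recovered reads scaled to library size (CPM) after TMM scaling (edgeR 4.0.16), filtered with filterByExpr at a minimum count of 10, and tested on log2(CPM + 1) with limma 3.58.1 in 1 fit of all 30 libraries. Recovered reads also went into edgeR and DESeq2 1.42.0 as alternatives. For conversion, limma was run on arcsine square roots, with values behind fewer than 20 reads left out and at least 2 values required per compared group. Differences in conversion are of group means in percent. P-values were adjusted by Benjamini-Hochberg over all genes tested, and calls had an adjusted p under 0.05. Both fits were tested on simulated data. Every called member is named, or where more than 15 were called in 1 direction the 12 with the largest change, along with the member with the most reads in each role and up to 3 regulators per list and direction at 8 h. Members followed a rule on symbols, but the family, its role groups and the regulator lists were chosen with earlier results of these data known. Floors cover counting error only, and the 95% intervals of log2 differences rest on the spread between libraries. Other scalings, filters, tools, transforms and left-out libraries were tried. Coordinates and sequences are from GRCh38 references and were not converted to hg19. Of the regulators that this rule names, 2 are not reported here.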

Additional observations from a re-analysis of the deposited data

Results flagged for a closer look

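In 5 results the effect of a compound on conversion at 8 h differed from its effect at 2 h by the test of that difference. For RAB8A, the exocytosis RAB, the effect at 8 h minus that at 2 h was -10.3 percentage points with KB742 (adjusted p = 0.000269 in limma) and -10.1 with KI-ARv-03 (adjusted p = 0.000337). For RAB14 it was -3.23 with KB742 (adjusted p = 0.00697) and -2.85 with KI-ARv-03 (adjusted p = 0.0468), and for RAB5B it was -2.29 with KI-ARv-03 (adjusted p = 0.0447). The tests with the 2 compounds share their DMSO libraries. Conversion with DMSO was itself higher at 8 h than at 2 h in every library of RAB8A, RAB14 and RAB5B.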

How the results depend on the processing

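Of the calls named, 13 of 29 in level and 50 of 71 in conversion were kept for members in all settings run, as were 10 of 24 and 25 of 34 for regulators. Reversals were limited to RAB11A (-0.0622) and RAB3B (-0.0943) at 8 h with DMSO under the deposited scaling, which shifted the median of all genes by -0.146, -0.376 and -0.587 at 2, 4 and 8 h with DMSO. The cause of the other changes was not tested.

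On the recovered reads edgeR called 3 members at 4 h and 22 at 8 h with DMSO. Counts of members called in level moved by over 1.5 times as follows. At 4 h with DMSO (2) they were 4 with size factors, 9 with the deposited scaling, 8 with DESeq2, 6 in the fit of the 2 groups alone and 4 without the 3 libraries that stand apart, a setting chosen after seeing the data. At 2 h with DMSO (0) the deposited scaling gave 1. At 4 h with KB742 (1) the count was 0 with size factors, the deposited scaling, a pseudocount of 0.25, no filter, the replicate block and the 2 groups alone, and with KI-ARv-03 (0) DESeq2 gave 1. At 8 h with KB742 (2) it was 1 with edgeR, 1 with the replicate block and 0 in the 2 groups alone, and with KI-ARv-03 (2) it was 0 in the 2 groups alone.

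Counts in conversion moved at 2 h with DMSO (4) to 2 with a minimum of 50 reads, 2 in the 2 groups alone and 1 without the 3 libraries. With KB742 at 2 h (1) log2(percent + 0.1) and the 2 groups alone gave 0, and with KI-ARv-03 at 4 h (2) they gave 0 and 1. Without the 3 libraries the counts were 13 for KB742 and 16 for KI-ARv-03 at 4 h, 2 for KI-ARv-03 at 2 h, and 7 for KB742 and 9 for KI-ARv-03 in the differences between 8 h and 2 h. Shares of all genes were not taken with libraries left out, here or below.

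Without 1 library at a time, members called in level with DMSO were 0 at 2 h, 1 to 4 at 4 h and 18 to 22 at 8 h, and in conversion 1 to 3 (lowest without 0 h replicate 1), 14 to 19 and 16 to 20. With KB742 the levels gave 0, 0 to 1 and 1 to 2 and conversion 0 to 1, 3 to 8 (lowest without KB742 4 h replicate 1) and 12 to 16. With KI-ARv-03 the levels gave 0, 0 and 1 to 4 (highest without KI-ARv-03 8 h replicate 2) and conversion 0, 0 to 13 (lowest without DMSO 4 h replicate 1, highest without KI-ARv-03 4 h replicate 1) and 15 to 18. The differences between 8 h and 2 h in conversion gave 2 to 3 with KB742 and, with KI-ARv-03, 1 to 8 (lowest without DMSO 2 h replicate 1, highest without DMSO 8 h replicate 1), and those in level 0.

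Over 27 pairs, libraries with the same replicate number had correlations of their deviations of -0.363 to 0.452, 7 of them over 0.1, so the numbers were not taken to pair the libraries. With the replicate block the difference between 8 h and 2 h in conversion with KI-ARv-03 called 1 member in place of 3. Conversion values need 20 reads, so members at low levels have few of them.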

Other observations

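RAB11B, a paralog of RAB11A that also acts in recycling, had the largest spread between replicates of the members, with a residual SD of 1.12 on the log2 scale, above 98.7% of all genes tested (median 0.519). It had 188, 1225 and 331 CPM with KB742, 161, 1243 and 118 CPM with KI-ARv-03 and 310.1, 194 and 916 CPM with DMSO at 8 h, with 1 library far above the others in each group. RAB13 followed, with a residual SD of 0.912, above 95.1% of genes.

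RAB11B-AS1 is annotated antisense to RAB11B. With the compounds at 8 h its level and conversion were 20.3 CPM ± 1.34 and 1.10% ± 0.957 with KB742 and 21.5 CPM ± 1.70 and 0.597% ± 0.655 with KI-ARv-03 (mean ± SD, n = 3 each). The level was 47.5 CPM ± 24.0 at 8 h with DMSO and 47.5 CPM ± 8.00 at 0 h, and its conversion was 9.0% ± 4.63 at 8 h with DMSO and 0.913% ± 0.452 at 0 h. RAB11B had 0.189, 0.273 and 0.167% conversion at 8 h with DMSO. These values of the antisense gene were chosen after they were seen and were not tested.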
